A study of Mus musculus with 96 samples.

Results

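The 10 genes described here are Ccdc63, Il20rb, Serpinb1a and Mslnl, which were lower in Q140 than in Q20 cerebellum, and Tpbg, Igsf10, Slc44a5, Necab1, Ano5 and Dpp10, which were higher, out of 39179 genes in the deposited tables. They were chosen by their measured difference between Q140 and Q20 mice at 6 and 10 months of age, so the levels in those 2 groups are given as a description, without a test. All 10 passed the filter on low counts at both ages. Cerebellar messenger RNA of C57BL/6 mice was sequenced in 96 libraries, 8 per group and age, 4 of each sex. At each age the groups were wild types housed with Q20 mice, wild types housed with Q50 mice, and mice heterozygous for a knock-in Htt allele of nominally 20, 50, 92 or 140 CAG units (Q20, Q50, Q92 and Q140), which also kept 1 wild-type allele. Q92 and Q140 mice were housed with their own genotype, and no wild types from their cages were analysed here, so repeat length, knock-in line and cage cannot be told apart for them. Whether every library is a separate animal is not stated, so the p-values measure the spread between these libraries, which may be technical.

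Htt encodes huntingtin, a large scaffold protein of nearly all cells, and an expanded CAG repeat in its first exon, read as a polyglutamine tract, causes Huntington disease. The striatum is known as the region hit hardest, and the cerebellum, built of granule neurons, Purkinje cells, interneurons, Bergmann glia and oligodendrocytes, as a less affected one. A knock-in allele is expressed from the mouse's own Htt promoter, in the cells that normally use it.

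Library totals ran from 29957797 to 39477325 estimated counts. All 12 granule neuron, 12 Purkinje cell and 12 Bergmann glia and astrocyte markers were measured in every group, as cerebellum requires. Htt, counted over both alleles, had a median of 271 CPM (counts scaled by library size) in Q140 and 276 CPM in Q20 at 6 months. At 10 months it had 264 CPM in Q140 (236.5 to 278.7), the lowest median of the 6 groups, and 312 CPM in Q20 (264.8 to 328.8). On the first principal component of all genes, 11 of 48 libraries at 6 months (1 Q140, 4 Q20, 2 Q50 and 4 wild types) and 1 of 48 at 10 months (Q92 female replicate 2) lay over 3 scaled median absolute deviations from the median, and are called far libraries below. That Q92 library also had the highest mitochondrial share of counts in its group, 12.65%, against a group median of 6.79%. In whole tissue, fewer cells of a type and less RNA per cell cannot be told apart.

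The 10 genes lie on 8 chromosomes (GENCODE M21, GRCm38). Ccdc63 (ENSMUSG00000043036, chromosome 5, 122108040 to 122140823, minus strand) is the 1 gene of the 10 on the chromosome of Htt, 87.2 Mb away. Il20rb (ENSMUSG00000044244, 100457719 to 100486788, minus strand) and Tpbg (ENSMUSG00000035274, 85842380 to 85847040, plus strand) lie on chromosome 9. Igsf10 (ENSMUSG00000036334, 59316735 to 59344394, minus strand) and Slc44a5 (ENSMUSG00000028360, 153973436 to 154271722, plus strand) lie on chromosome 3. Necab1 (ENSMUSG00000040536) is on chromosome 4 from 14952245 to 15149794, Serpinb1a (ENSMUSG00000044734) on chromosome 13 from 32842092 to 32851185 and Ano5 (ENSMUSG00000055489) on chromosome 7 from 51511029 to 51598709. Dpp10 (ENSMUSG00000036815) spans 724089 bases of chromosome 1 from 123321471 to 124045559, and Mslnl (ENSMUSG00000041062) lies on chromosome 17 from 25736042 to 25748330.

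Promoter windows from RefSeq (GRCm38.p6) matched 7 of the 10 genes; Ccdc63, Necab1 and Serpinb1a had none in the table. Shown are 1 lower gene and 3 higher genes whose windows hold no annotated exon, because their CG content differs widely. Each line gives the 250 bases before the start site on the gene's strand, 5′ to 3′, with CG dinucleotides in capitals. The windows are chr17:25735790-25736039 (plus strand) for Mslnl, chr9:85842130-85842379 (plus strand) for Tpbg, chr3:153973186-153973435 (plus strand) for Slc44a5 and chr1:124045560-124045809 (minus strand) for Dpp10.
Mslnl: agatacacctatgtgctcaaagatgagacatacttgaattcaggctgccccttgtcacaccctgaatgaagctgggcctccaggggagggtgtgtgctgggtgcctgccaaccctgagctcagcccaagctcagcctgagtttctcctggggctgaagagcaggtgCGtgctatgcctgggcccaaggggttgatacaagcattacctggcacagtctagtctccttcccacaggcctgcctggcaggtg
Tpbg: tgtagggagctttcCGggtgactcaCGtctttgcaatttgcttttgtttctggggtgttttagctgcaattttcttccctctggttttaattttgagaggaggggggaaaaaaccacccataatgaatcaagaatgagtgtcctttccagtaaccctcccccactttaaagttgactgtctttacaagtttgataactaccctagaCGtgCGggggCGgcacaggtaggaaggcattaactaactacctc
Slc44a5: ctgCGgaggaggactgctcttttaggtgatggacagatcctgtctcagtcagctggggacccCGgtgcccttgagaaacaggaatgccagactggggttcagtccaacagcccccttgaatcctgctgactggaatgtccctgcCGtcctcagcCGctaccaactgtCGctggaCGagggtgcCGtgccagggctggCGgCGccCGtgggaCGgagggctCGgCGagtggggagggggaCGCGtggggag
Dpp10: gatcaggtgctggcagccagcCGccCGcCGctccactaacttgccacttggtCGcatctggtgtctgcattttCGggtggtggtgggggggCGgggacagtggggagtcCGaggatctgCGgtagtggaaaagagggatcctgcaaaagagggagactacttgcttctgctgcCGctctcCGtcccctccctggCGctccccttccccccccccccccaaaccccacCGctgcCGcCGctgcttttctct

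The Mslnl window held 1 CG dinucleotide, as did that of Il20rb, and 18.8% of the 32851 windows in the table held at most 1. The windows of the higher genes held 5 in the Tpbg window shown, 13 in Igsf10 and in Ano5, 14 in Dpp10 and 15 in Slc44a5, against a median of 6.0 over all windows. A second Tpbg window held 14. All 250 bases of the Il20rb window and 236 of the Igsf10 window lie in annotated exons. The lower genes Ccdc63 and Serpinb1a had no window, so CG content was not compared between lower and higher genes. Both strands were searched for each motif named. GGGCGG was in the windows of Il20rb, Tpbg, Igsf10 and Dpp10 and in 32.7% of all windows, and CCAAT in those of Igsf10 and Ano5 and in 33.8% of all. TATAAA (12.4% of all windows) and CACGTG (6.02%) were in none of the 7 genes' windows. A match is a description of these letters only.

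The strand used in counting is not given in the sources used here, so a read where genes of both strands overlap could be from either. Of the 50-base words of its annotated exons, Igsf10 shared 18.9% with other genes, nearly all with Med12l on the opposite strand. Med12l averaged 114 CPM in Q140 and 103 CPM in Q20 at 6 months, and was not called at either age (edgeR adjusted p = 0.253 and 0.812). Tpbg shared 20.1% of its words with 9330154J02Rik on the opposite strand, which averaged 0.577 CPM in Q140 and 0.408 CPM in Q20 at 6 months. Serpinb1a shared 2.81%, with the near copies Serpinb1c and Serpinb1b among others, so its level is uncertain to that extent. Necab1 shared 6.96% and Dpp10 3.07%, Ccdc63, Slc44a5 and Mslnl at most 1.67%, and Il20rb and Ano5 none.

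Compared per length of gene, Dpp10 and Il20rb were the most abundant, at 40.96 and 39.21 FPKM on average over the 96 libraries. Serpinb1a and Necab1 averaged 6.72 and 6.70 FPKM, Ccdc63 4.05 FPKM, Tpbg 3.43 FPKM, Slc44a5 2.12 FPKM and Igsf10 1.09 FPKM. Ano5 and Mslnl were the lowest, at 0.768 and 0.581 FPKM. Mslnl rested on 14 to 116 estimated counts per library and Dpp10 on 4323 to 8180.

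Over all genes, edgeR's quasi-likelihood test called 28 of 17120 in Q140 against Q20 at 6 months (0.164%) and 339 of 17026 at 10 months (1.99%), at a Benjamini-Hochberg adjusted p under 0.05. Of the 10 genes, 9 were called at both ages and Necab1 at 10 months alone (adjusted p = 0.0796 at 6 months). In all 18 genes were called at both ages, so 9 of them are not among the 10, and the ranking by itself does not give the list. Without the far libraries the test called 6 genes in all at 6 months, so some of the 10 lost their call at that age. Ordered by the larger of the 2 adjusted p-values, Tpbg and Ccdc63 shared the first place, Ano5 was in place 15 and Necab1 in place 40. Genes outside the list stood between them, such as Gm5067 in place 3 and Car2 in place 6. The last gene called at both ages was Cldn11, a tight junction protein of myelin, at 0.0482 (−0.49 at 6 months and −0.45 at 10 months), and the first one outside was Rhog at 0.0501 (−0.39 and −0.33). The 8 Q140 libraries stood wholly apart from the 8 Q20 libraries for 3 of the 10 genes at 6 months and 7 at 10 months, as for 0.0584% and 1.19% of all genes tested, in the contrast that chose them.

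**Figure D1:**
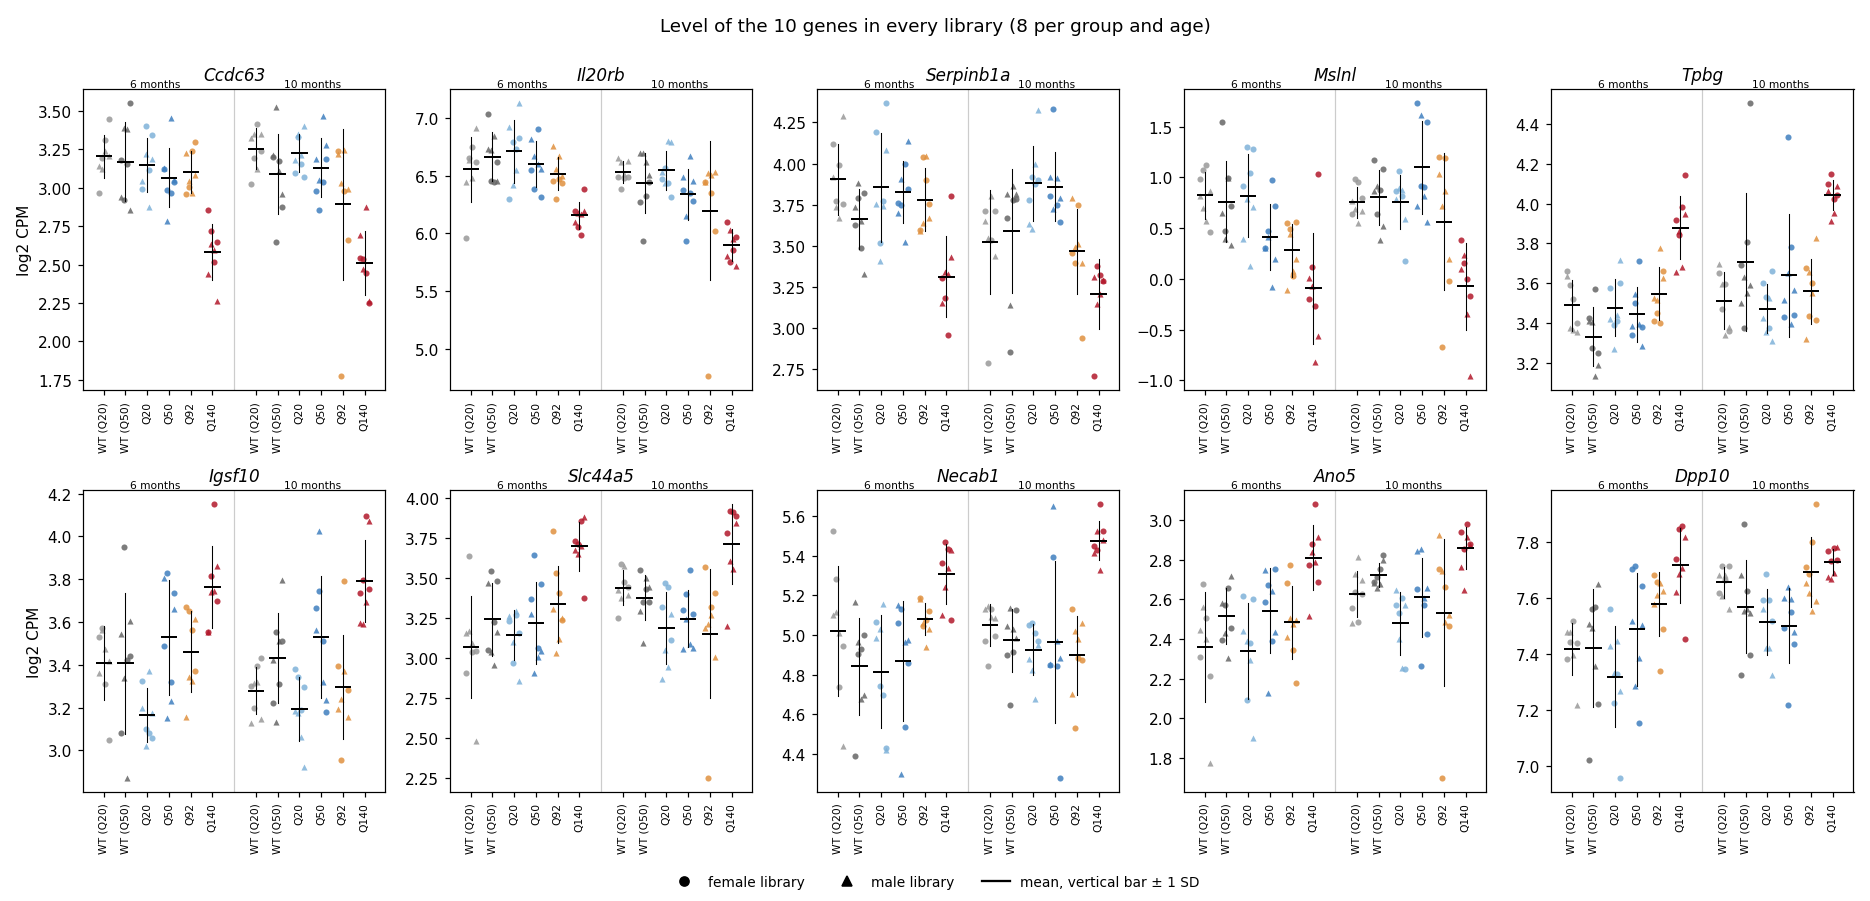
Level of each of the 10 genes in every library, in log2 CPM (vertical axis), by group within each age, where WT (Q20) and WT (Q50) are wild types housed with Q20 or Q50; circles are female and triangles male libraries, horizontal bars means and vertical bars 1 SD. The Q140 mean is the lowest of the 6 groups for Ccdc63, Il20rb, Serpinb1a and Mslnl and the highest for the other 6 genes at both ages, and Q92 female replicate 2 at 10 months lies far below its group in Ccdc63, Il20rb, Slc44a5 and Ano5.

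Among the lower genes, Ccdc63 encodes a coiled-coil protein related to the docking complex of outer dynein arms, which in mice is needed for the sperm flagellum. Here and below, the 3 CPM values of a group are its lowest, median and highest library. At 6 months it had 4.74, 6.07 and 7.18 CPM in Q140, against 7.27, 8.82 and 10.5 CPM in Q20. Ccdc63 had 4.69, 5.61 and 7.26 CPM in Q140 at 10 months, against 8.33, 9.12 and 10.5 CPM in Q20. Every Q140 library lay below every Q20 library at both ages. The log2 fold change was −0.56 ± 0.09 at 6 months and −0.71 ± 0.12 at 10 months (SE, n = 8 each), and against the 16 wild types it was −0.61 ± 0.08 at 6 months and −0.67 ± 0.10 at 10 months. The medians of the groups between were close to Q20 at 6 months, with 8.19 CPM in Q50 and 8.29 CPM in Q92, and no Q92 library reached down to Q140. At 10 months Q92 had a median of 8.01 CPM, and its lowest library, at 3.35 CPM, lay under all Q140 libraries.

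Il20rb encodes the beta subunit of receptors for interleukin-10 family cytokines, which signal through JAK and STAT proteins. Il20rb had 63.4, 72.2 and 83.3 CPM in Q140 at 6 months, against 78.6, 108 and 140.1 CPM in Q20. The Q140 libraries held 52.5, 59.9 and 68.7 CPM at 10 months, against 79.8, 90.6 and 112 CPM in Q20. At 6 months 7 of 8 Q140 libraries lay below every Q20 library, and at 10 months all did. Q140 differed from Q20 by −0.56 ± 0.10 at 6 months and −0.64 ± 0.12 at 10 months in log2, and −0.46 ± 0.09 at 6 months and −0.58 ± 0.11 at 10 months against the 16 wild types. Wild types from Q20 and Q50 cages had medians of 98.7 and 102 CPM at 6 months and of 90.4 and 89.1 CPM at 10 months. In Q92 the medians were 89.5 and 86.9 CPM, with 1 library at 27.1 CPM at 10 months, below every other library of the 6 groups at that age.

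Serpinb1a encodes an inhibitor of neutrophil serine proteases. The Q140 libraries held 7.695, 9.902 and 13.9 CPM at 6 months, against 10.5, 13.5 and 20.6 CPM in Q20. Its level at 10 months was 6.46, 9.71 and 10.3 CPM in Q140, against 12.1, 14.7 and 20.00 CPM in Q20. At 6 months 6 of 8 Q140 libraries lay below every Q20 library, and at 10 months the groups stood apart. The log2 fold change was −0.55 ± 0.11 at 6 months and −0.68 ± 0.13 at 10 months, and −0.46 ± 0.10 at 6 months and −0.37 ± 0.11 at 10 months against the 16 wild types. Part of the distance at 10 months lay in Q20, which was above those wild types by 0.30 ± 0.11. At 10 months Q92 was near the wild types, with a median of 11.04 CPM against 12.1 CPM in wild types from Q20 cages and 13.7 CPM in those from Q50 cages.

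Oligodendrocyte markers moved beside Serpinb1a: of 21, the log2 fold change of Q140 minus Q20 was below 0 for 21 at 6 months and 19 at 10 months, with medians of −0.28 and −0.34. Of them 4 were called lower in Q140 against Q20 at 6 months and 11 at 10 months by edgeR, where 0.0993% and 0.934% of all genes were, and none was called higher (0.0643% and 1.06% of all genes). Their summed level ran from 4336 to 6679 CPM in Q140 and from 6024 to 10810 CPM in Q20 at 6 months. At 10 months it ran from 4371 to 5978 CPM in Q140 and from 5953 to 8616 CPM in Q20, and no marker was at 0 in any group. The mean log2 CPM of the markers at 10 months was 6.56 in Q140 and 6.63 in Q92. In wild types from Q20 and Q50 cages it was 6.68 and 6.65, and in Q20 and Q50 6.89 each. So at 10 months Q20 also lay above the wild types. At 6 months it was 6.54 in Q140, 6.77 in Q92, and 6.93 and 6.76 in those wild types. The part of these markers in the Serpinb1a difference was not tested.

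Mslnl encodes a relative of mesothelin, a protein of the mesothelial cell surface. Its level at 6 months was 0.508, 0.856 and 1.98 CPM in Q140, against 1.03, 1.75 and 2.41 CPM in Q20. At 10 months it had 0.455, 0.978 and 1.24 CPM in Q140, against 1.07, 1.73 and 2.03 CPM in Q20. The groups overlapped at both ages, at 6 months through 1 Q140 library at 1.98 CPM. The log2 fold change, −0.88 ± 0.17 at 6 months and −0.84 ± 0.20 at 10 months, was the largest of the 10 genes in size at both ages, with the widest SE. Against the 16 wild types it was −0.86 ± 0.15 at 6 months and −0.85 ± 0.18 at 10 months. At 10 months every Q140 library lay below every wild-type library, but the highest Q140 library (1.243 CPM) nearly equalled the lowest wild type (1.244 CPM). At 6 months the medians in Q50 and Q92, 1.23 and 1.195 CPM, lay between those of Q20 and Q140, but at 10 months they were 1.82 and 1.68 CPM, near the Q20 median.

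Among the higher genes, Tpbg encodes trophoblast glycoprotein, a membrane protein with leucine-rich repeats that modifies Wnt signalling. At 6 months it had 12.6, 14.8 and 17.6 CPM in Q140, against 9.58, 10.7 and 13.1 CPM in Q20. Tpbg had 15.03, 16.6 and 17.7 CPM in Q140 at 10 months, against 9.86, 11.1 and 12.6 CPM in Q20. At 6 months 6 of 8 Q140 libraries lay above every Q20 library, and at 10 months all did. This gave a log2 fold change of 0.42 ± 0.07 at 6 months and 0.57 ± 0.11 at 10 months, and 0.48 ± 0.06 at 6 months and 0.41 ± 0.09 at 10 months against the 16 wild types. Every other group had a median between 10.1 and 12.2 CPM at both ages. At 10 months 1 wild-type library at 22.7 CPM and 1 Q50 library at 20.1 CPM lay above all Q140 libraries.

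Igsf10 encodes a large secreted protein of the immunoglobulin superfamily, known for its part in the migration of gonadotropin-releasing hormone neurons. Igsf10 had 11.7, 13.3 and 17.7 CPM in Q140 at 6 months, against 8.04, 8.74 and 10.3 CPM in Q20. The Q140 libraries held 11.99, 13.4 and 17.03 CPM at 10 months, against 7.51, 9.04 and 10.4 CPM in Q20. Q140 stood wholly above Q20 at both ages. In log2, Q140 differed from Q20 by 0.62 ± 0.11 at 6 months and 0.61 ± 0.10 at 10 months. Against the 16 wild types it was smaller, 0.35 ± 0.09 at 6 months and 0.44 ± 0.09 at 10 months. Q20 had the lowest mean of the 6 groups at both ages and differed from those wild types by −0.26 ± 0.10 and −0.17 ± 0.09. Q50 stood next to Q140, with medians of 11.9 and 11.5 CPM against 11.02 and 9.52 CPM in Q92, so the order did not follow repeat length.

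Slc44a5 encodes a member of the choline transporter-like family. The Q140 libraries held 10.3, 13.02 and 14.7 CPM at 6 months, against 7.21, 9.11 and 9.74 CPM in Q20. Its level at 10 months was 9.12, 14.02 and 15.1 CPM in Q140, against 7.27, 9.13 and 11.1 CPM in Q20. The groups stood apart at 6 months, and at 10 months 7 of 8 Q140 libraries lay above every Q20 library. Q140 differed from Q20 by 0.57 ± 0.11 at 6 months and 0.53 ± 0.10 at 10 months in log2, and 0.54 ± 0.09 at 6 months and 0.31 ± 0.09 at 10 months against the 16 wild types. At 10 months the wild types had medians of 10.8 and 10.4 CPM, above the medians of Q20, Q50 (9.53 CPM) and Q92 (9.42 CPM).

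Necab1 encodes a neuronal calcium-binding protein with an EF-hand. Its level at 6 months was 33.7, 40.8 and 44.3 CPM in Q140, against 21.4, 29.2 and 35.6 CPM in Q20. At 10 months it had 40.1, 44.1 and 50.5 CPM in Q140, against 25.5, 31.1 and 33.3 CPM in Q20. At 6 months 6 of 8 Q140 libraries lay above every Q20 library, and at 10 months all 8 lay above every Q20 and every wild-type library. In log2, Q140 differed from Q20 by 0.48 ± 0.12 at 6 months and 0.55 ± 0.10 at 10 months, and 0.36 ± 0.11 at 6 months and 0.46 ± 0.09 at 10 months against the 16 wild types. Without the far libraries, 4 of them Q20, the 6-month value was 0.28, and it was the 1 value among the 20 of these genes that moved by over 1.5 times. At 10 months the Q50 libraries spread from 19.4 to 50.2 CPM.

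Ano5 encodes an anoctamin, of a family of membrane proteins that conduct ions or move phospholipids, and its loss in humans causes muscle disease. At 6 months it had 5.67, 6.98 and 8.41 CPM in Q140, against 3.68, 5.16 and 6.07 CPM in Q20. Ano5 had 6.22, 7.29 and 7.84 CPM in Q140 at 10 months, against 4.69, 5.81 and 6.22 CPM in Q20. At 6 months 7 of 8 Q140 libraries lay above every Q20 library, and at 10 months all did, with the lowest Q140 and the highest Q20 library equal at 3 digits. This gave a log2 fold change of 0.48 ± 0.10 at 6 months and 0.38 ± 0.09 at 10 months, and 0.37 ± 0.09 at 6 months and 0.19 ± 0.08 at 10 months against the 16 wild types. The wild types housed with Q50 came nearest to Q140 at 10 months, with a median of 6.44 CPM.

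Dpp10 encodes a dipeptidyl peptidase-like protein without enzyme activity, an auxiliary subunit of A-type potassium channels in neurons. Dpp10 had 175, 211 and 232 CPM in Q140 at 6 months, against 124, 161 and 189 CPM in Q20. The Q140 libraries held 203, 213 and 220.1 CPM at 10 months, against 161, 186 and 206 CPM in Q20. The groups overlapped at both ages, with 7 of 8 Q140 libraries above every Q20 library at 6 months and 6 of 8 at 10 months. The log2 fold change, 0.40 ± 0.08 at 6 months and 0.21 ± 0.06 at 10 months, was the smallest of the 10 genes at both ages, and it was 0.30 ± 0.07 at 6 months and 0.11 ± 0.05 at 10 months against the 16 wild types. Q92 lay next to Q140 at both ages, and at 10 months the difference of Q140 from Q92 was 0.03 ± 0.06.

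Across the groups, the Q140 mean stood at the end of the order for all 10 genes at both ages, which the choice favours. Its gap to the nearest group was wider than the whole range of the other 5 group means for 6 genes at 6 months (Ccdc63, Il20rb, Tpbg, Slc44a5, Serpinb1a and Ano5) and for 4 at 10 months (Ccdc63, Tpbg, Necab1 and Mslnl). Q140 was beyond its neighbour by more than the larger of their SDs for 8 genes at 6 months and 4 at 10 months. Among the other 5 groups, none of the 40 neighbouring pairs at each age was apart by more than the larger SD. The choice of the genes by their Q140 levels favours these counts too. They were not made over all genes, so they are a description only. Q92 was the neighbour of Q140 for 6 genes at 6 months and 5 at 10 months. The median size of the log2 fold change over the 10 genes was 0.10 for Q50 minus Q20, 0.20 for Q92 minus Q20 and 0.33 for Q140 minus Q92 at 6 months, and 0.11, 0.11 and 0.45 in the same order at 10 months. For Q140 minus the 16 wild types it was 0.46 and 0.43, and for Q20 minus those wild types 0.09 and 0.13. Without the far libraries all 20 values of Q140 minus Q20 kept their sign. These contrasts share libraries with the one that chose the genes and with each other.

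**Figure D2:**
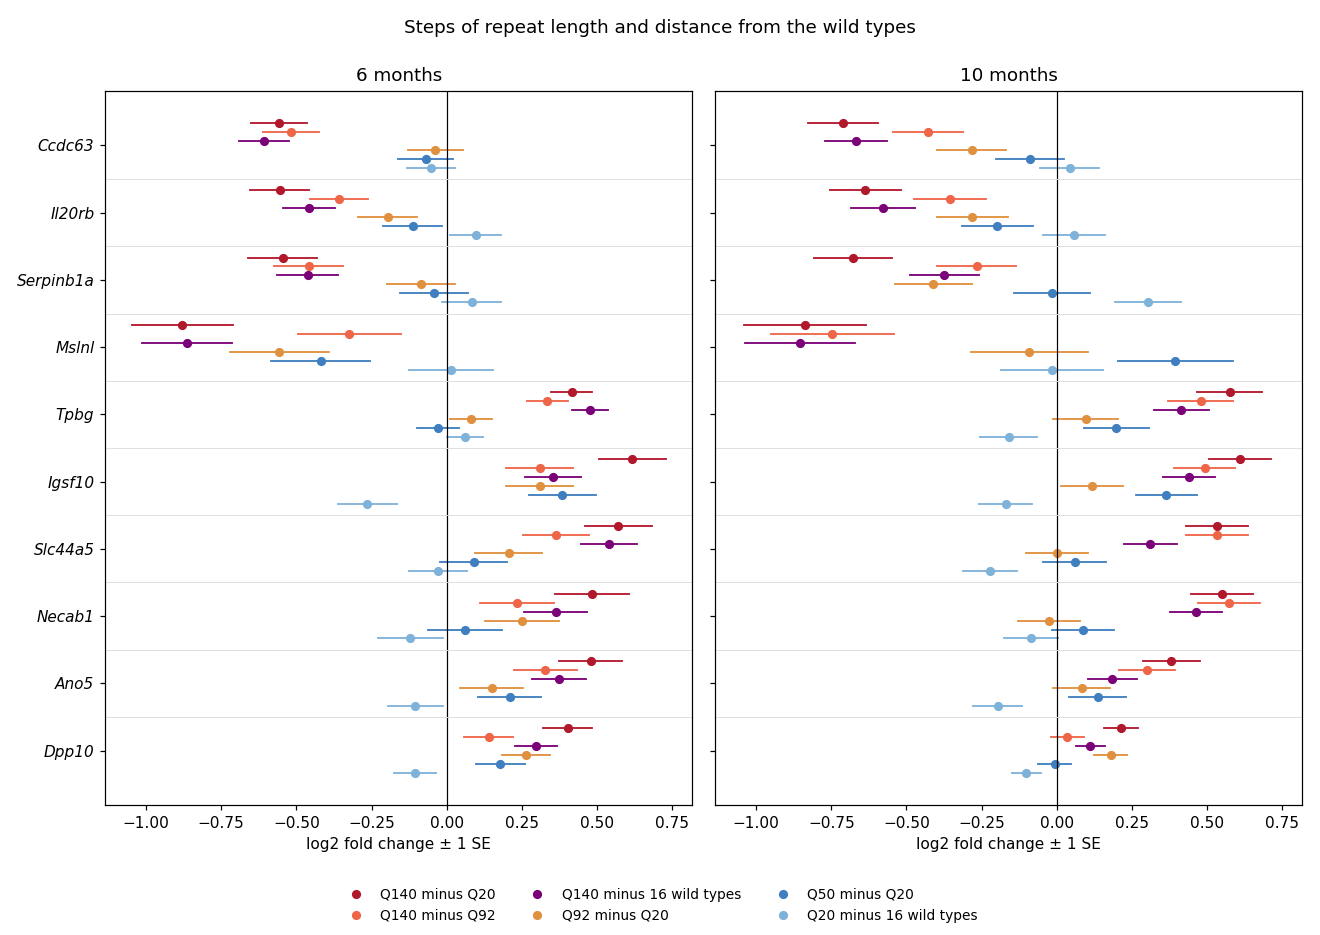
Log2 fold changes (points, horizontal axis) ± 1 SE (lines) of the 10 genes at 6 and 10 months, from the edgeR fit of the 48 libraries of an age, for 6 contrasts between Q140, Q92, Q50, Q20 and the 16 wild types. The contrasts of Q140 with Q20 and with the wild types lie on the same side of 0 for each gene at both ages, the largest for Mslnl at −0.88 and the smallest for Dpp10.

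Taken within the 4 female and the 4 male libraries of each group, the mean log2 CPM of Q140 lay on the same side of Q20 in both sexes for all 10 genes at both ages. The genes were chosen on these same libraries, which favours that agreement in sign, so it is a description. The difference for Ccdc63 was −0.72 in females and −0.71 in males at 10 months. The sexes were farthest apart for Mslnl at 10 months, with −0.64 in females and −1.03 in males. A difference between the sexes in these groups was not tested.

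Tests that use no Q140 and no Q20 library were made in the 32 others of an age, with p-values adjusted over all genes. Earlier results of these libraries were also known when the genes were listed, so it is not shown that the tests are free of that choice. They ask whether the 10 genes differ at 92 or 50 CAG. In Q92 minus Q50 edgeR called none of the 10 at 6 months (0% of all genes) or at 10 months (0%), with 0 and 4 at an unadjusted p under 0.05, where 2.84% and 10.5% of all genes were. In Q92 minus the 16 wild types it called none (0.0355% and 0.0535% of all genes), with 3 and 2 at an unadjusted p under 0.05 (5.42% and 8.39% of all genes). In Q50 minus the wild types housed with Q50 it called none (0.0118% and 0.0535%), with 1 and 0 at an unadjusted p under 0.05 (0.906% and 3.64%). DESeq2 and limma-trend on FPKM also called 0 of the 10 in these 3 comparisons at both ages. The counts at an unadjusted p depend on the far libraries. Without them, in Q92 minus the 16 wild types, the unadjusted edgeR p of Tpbg and Dpp10 rose to 0.0807 and 0.0527 at 6 months. Those of Ccdc63 and Slc44a5 rose to 0.117 and 0.061 at 10 months. In Q92 minus Q50, Igsf10 and Mslnl rose to 0.0784 and 0.0599 at 10 months, and Tpbg fell to 0.0229 at 6 months. The share of all genes in those fits is not given. A p that misses the threshold does not show that levels were alike, and intervals are given below.

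Mslnl had the largest difference of Q92 from the 16 wild types. At 6 months it averaged 0.28 log2 CPM in Q92 and 0.79 log2 CPM in the wild types. The log2 fold change was −0.55 with a 95% interval from −0.81 to −0.28 (edgeR adjusted p = 0.322, lower in 8 of 8 Q92 libraries), and −0.47 ± 0.10 without the far libraries. At 10 months it was −0.11 with an interval from −0.48 to 0.26 (edgeR adjusted p = 0.809), and 0.03 ± 0.16 without the far library. In Q50 Mslnl differed from the wild types of its own cages by −0.39 ± 0.14 at 6 months and by 0.34 ± 0.21 at 10 months (edgeR adjusted p = 1 for both), with opposite signs.

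At 10 months Dpp10 and Serpinb1a had the smallest p of the 10 in Q92 minus Q50. Dpp10 was 0.19 with an interval from 0.06 to 0.31 (edgeR adjusted p = 0.28, above the Q50 mean in 8 of 8 libraries). Serpinb1a was −0.40 with an interval from −0.68 to −0.11 (edgeR adjusted p = 0.319, below the Q50 mean in 8 of 8 libraries). The other 2 of the 4 were Mslnl, at −0.48 ± 0.21 (edgeR adjusted p = 0.415), and Igsf10, at −0.25 ± 0.11 with an interval from −0.47 to −0.02 (edgeR adjusted p = 0.439), against its sign in Q140 minus Q20. Both were smaller in size without the far library, at −0.35 ± 0.18 for Mslnl and −0.20 ± 0.11 for Igsf10. Of the 10 genes, 5 had the sign of Q140 minus Q20 in this contrast (Ccdc63, Il20rb, Serpinb1a, Mslnl and Dpp10) and 5 the opposite sign (Tpbg, Igsf10, Slc44a5, Necab1 and Ano5). Without the far library Il20rb (0.04), Slc44a5 (0.04) and Ano5 (0.03) changed sign in it. At 6 months Ccdc63, Igsf10 and Ano5 had the opposite sign in Q92 minus Q50. There Ccdc63 (−0.03) and Dpp10 (−0.001) changed sign without the far libraries. In Q92 minus the 16 wild types all 10 had the sign of Q140 minus Q20 at 6 months. Without the far libraries Igsf10 (−0.05), Serpinb1a (0.01) and Ano5 (−0.04) changed it. At 10 months the same 5 as in Q92 minus Q50 had the opposite sign, and without the far library Mslnl (0.03) had it too. Ccdc63 differed by −0.24 ± 0.11 from the 16 wild types at 10 months (edgeR adjusted p = 0.565), with 5 of 8 Q92 libraries below the wild-type mean and female replicate 2 the lowest. Without that library it was −0.13 ± 0.08 (edgeR adjusted p = 1).

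For Tpbg the interval of Q92 minus the 16 wild types ran from 0.01 to 0.26 at 6 months and from −0.29 to 0.16 at 10 months, while Q140 was 0.48 ± 0.06 at 6 months and 0.41 ± 0.09 at 10 months from the same wild types. Its Q92 value without the far libraries was 0.11 ± 0.06 at 6 months and −0.04 ± 0.12 at 10 months. For Il20rb, Igsf10, Serpinb1a, Necab1 and Ano5 the interval of Q92 minus the 16 wild types included 0 at both ages. Dpp10 was 0.15 at 6 months with an interval from 0.02 to 0.29 (edgeR adjusted p = 0.725), and 0.10 ± 0.05 without the far libraries. For Slc44a5 the value was 0.17 at 6 months and −0.22 at 10 months, there with an interval from −0.41 to −0.03 (edgeR adjusted p = 0.565). Without the far libraries Slc44a5 was 0.08 ± 0.09 and −0.12 ± 0.06. The change of that contrast with age, tested in 1 fit chosen after seeing the data, was −0.39 ± 0.14 (edgeR adjusted p = 0.448), and the fit called 0 of 17263 genes (0%), with 1 of the 10 at an unadjusted p under 0.05 (10.9% of all genes).

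**Figure D3:**
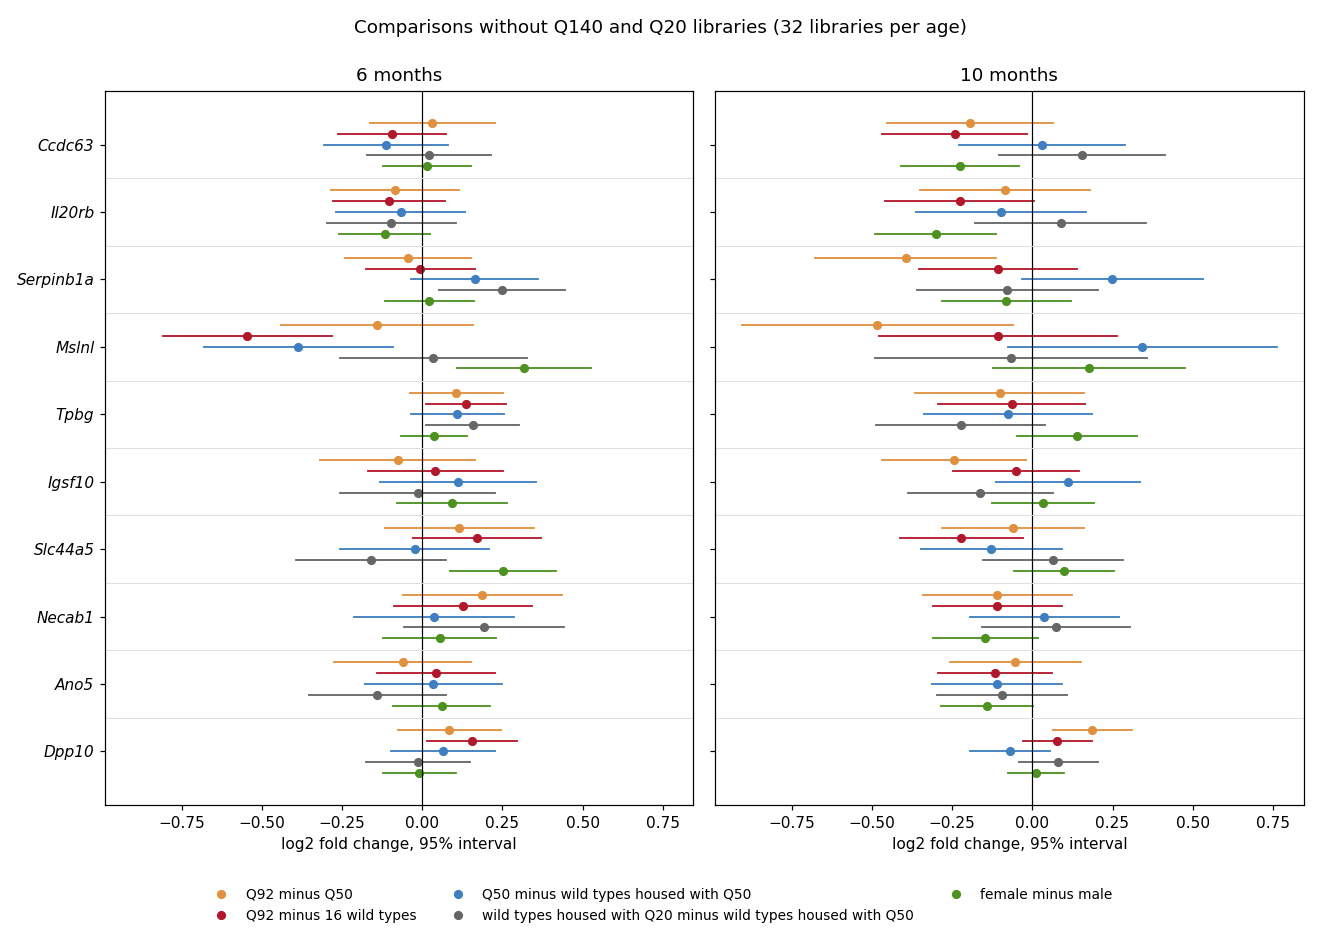
Log2 fold changes (points, horizontal axis) with 95% intervals (lines) of the 10 genes at 6 and 10 months in 5 comparisons that use no Q140 and no Q20 library (32 libraries per age, edgeR). Most intervals include 0, and the value farthest from 0 is −0.55 for Mslnl in Q92 minus the 16 wild types at 6 months.

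Wild types from Q20 and from Q50 cages, which carry no knock-in allele, were compared. Between them edgeR called none of the 10 genes at 6 months (0.00592% of all genes) or 10 months (0.0832%), with 2 and 0 at an unadjusted p under 0.05 (7.58% and 9.02% of all genes), and DESeq2 and limma-trend called none. The largest value at 6 months was 0.25 ± 0.10 for Serpinb1a (edgeR adjusted p = 0.546), and at 10 months −0.22 ± 0.13 for Tpbg (edgeR adjusted p = 0.624), which holds the library at 22.7 CPM.

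Between females and males edgeR called none of the 10 at 6 months (0.266% of all genes) or 10 months (2.93%), with 2 at an unadjusted p under 0.05 at each age, where 7.07% and 29% of all genes were. DESeq2 called 0 and 1, and limma-trend none. The nearest was Il20rb at 10 months, with 6.21 log2 CPM in females and 6.54 log2 CPM in males. Its log2 fold change was −0.30 ± 0.09 (edgeR adjusted p = 0.0562, lower than the male mean in 16 of 16 female libraries), with an adjusted p of 0.0288 in DESeq2. Without Q92 female replicate 2 it was −0.24 (edgeR adjusted p = 0.0109), and at 6 months it was −0.12 ± 0.07 (edgeR adjusted p = 0.801). At 6 months Slc44a5 (0.25 ± 0.08) and Mslnl (0.32 ± 0.10) had the smallest p (edgeR adjusted p = 0.325 and 0.327).

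Between ages, in the 32 wild-type libraries, edgeR called Slc44a5, Ano5 and Dpp10 higher at 10 than at 6 months, where 2.71% of all genes were called higher and 6.27% in either direction. Library numbers in the labels separate by age, so age and a run of library processing cannot be told apart here. The log2 fold changes were 0.24 ± 0.08 for Slc44a5 (edgeR adjusted p = 0.0482, above the 6-month mean in 15 of 16 libraries), 0.23 ± 0.06 for Ano5 (adjusted p = 0.0252, 16 of 16) and 0.19 ± 0.05 for Dpp10 (adjusted p = 0.0245, 14 of 16). Without the 4 far wild-type libraries, all at 6 months, they were 0.16, 0.15 and 0.14, and none was called (edgeR adjusted p = 0.249, 0.102 and 0.115). At an unadjusted p under 0.05 there were 5 of the 10, against 28.1% of all genes. No other gene of the 10 was called, and Tpbg came nearest with 0.22 ± 0.08 (edgeR adjusted p = 0.0787).

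How the 10 genes varied together beyond their group levels was measured in log2 CPM after removing the mean of each of 24 combinations of age, group and sex, over 96 libraries. In all 185 relations were computed, between the genes and with scores of 14 cell type marker lists, and called on Pearson's r by a permutation test within the combinations, adjusted over the 185. Of the 45 pairs of genes 16 were called, the weakest at a size of r of 0.309. That size was reached by 37.8% of the 45 pairs and by 39.9% of all pairs of 14208 other genes, so the share among the 10 was near that of genes at large. Of all those pairs 20.2% were positive and 19.7% negative at that size, against 31.1% and 6.67% of the 45. Among the 15 pairs of higher genes 10 were, all positive and all among Igsf10, Slc44a5, Necab1, Ano5 and Dpp10, while Tpbg was called with none of the 5; by rho, Necab1 with Dpp10 did not pass (rho of 0.28, adjusted p = 0.0535). The closest pair was Slc44a5 with Ano5, at r of 0.702 and rho of 0.563 (permutation p = 1e-05 and 1e-05, adjusted p = 0.000264 and 0.000308; 1e-05 is the smallest that 100000 resamples give), and r of 0.593 without the 2 libraries farthest out.

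Among the 6 pairs of lower genes 3 were called, those among Ccdc63, Il20rb and Mslnl. Of these, Ccdc63 with Mslnl (r of 0.398, adjusted p = 0.0494) rests on few libraries: r was 0.214 without the 2 farthest out, and rho was 0.278 (adjusted p = 0.0652). For Ccdc63 and Il20rb the values were r of 0.611 and rho of 0.414 (permutation p = 9e-05 and 0.00036, adjusted p = 0.000793 and 0.00317), and r was 0.413 without the 2 libraries farthest out. Serpinb1a was called with no other lower gene. Of the 24 pairs of a lower and a higher gene 3 were called, Tpbg with Serpinb1a (r of 0.364), Serpinb1a with Dpp10 (r of −0.37) and Il20rb with Dpp10 (r of −0.31). By rho the calls of Serpinb1a and of Il20rb with Dpp10 were lost (adjusted p = 0.0591 and 0.0528), and without the 2 libraries farthest out r of Il20rb with Dpp10 was −0.47. By rho alone Igsf10 passed with Ccdc63 (rho of −0.423, adjusted p = 0.00336) and with Il20rb (rho of −0.344, adjusted p = 0.0152), where r was −0.271 and −0.172, and −0.468 and −0.347 without the 2 farthest. The values share the libraries' depth and composition.

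Of the 140 relations of a gene with a marker list, 40 were called. The share among other genes was not computed, so whether such r are common among genes is not shown. Serpinb1a followed the oligodendrocyte score, at r of 0.831 and rho of 0.803 (permutation p = 1e-05 and 1e-05, adjusted p = 0.000264 and 0.000308) and r of 0.811 without the 2 libraries farthest out. It was also called with Purkinje cells (r of −0.484), meninges (−0.39), brainstem and deep nuclei neurons (0.346) and microglia (0.329). Among its 3 most similar genes of 14208 were Mog (r of 0.883), which encodes a myelin protein and is in that marker list, and Pllp (r of 0.871). Tpbg also went with the oligodendrocyte score (r of 0.557 and rho of 0.443, permutation p = 7e-05 and 0.0001, adjusted p = 0.000762 and 0.00116), though it was higher in Q140, where most of those markers had a log2 fold change below 0. Other scores called with Tpbg were Purkinje cells (r of −0.535), brainstem and deep nuclei neurons (0.422) and oligodendrocyte precursors (0.356). The most similar gene of Tpbg was Col11a1, at r of 0.646.

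Dpp10 went with the Purkinje cell score (r of 0.626 and rho of 0.546, permutation p = 2e-05 and 2e-05, adjusted p = 0.000336 and 0.000462) and against the oligodendrocyte score (r of −0.517 and rho of −0.431). Among its 3 most similar genes were Kitl and Pde5a (r of 0.894 for each). In Q140 against Q20 the 12 Purkinje cell markers had a median log2 fold change of 0.17 at 6 months, with 1 called higher, and of 0.02 at 10 months, with none called. Their part in the Dpp10 difference was not tested.

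Il20rb ran against the score of molecular layer and Golgi interneurons (r of −0.804 and rho of −0.669, permutation p = 1e-05 and 1e-05, adjusted p = 0.000264 and 0.000308), and so did Ccdc63 (r of −0.646 and rho of −0.506) and Mslnl (r of −0.41). All 3 also ran against the endothelial score, at r of −0.64 for Il20rb, −0.64 for Ccdc63 and −0.48 for Mslnl, and without the 2 libraries farthest out that of Ccdc63 was −0.42. Ccdc63 went with the granule neuron score (r of 0.65, and 0.45 without the 2 libraries farthest out). The 12 interneuron markers had medians of 0.11 and 0.01 in Q140 against Q20 with none called. The most similar genes of Il20rb were Pagr1a, Rnf112 and Pabpn1 (r between 0.907 and 0.911), and those of Ccdc63 were Gripap1, Boc and 5830444B04Rik (r between 0.75 and 0.767). The most similar gene of Mslnl was Cfp (r of 0.642).

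Slc44a5 and Ano5 went with the granule neuron score, at r of 0.628 and rho of 0.385 for Slc44a5 (permutation p = 8e-05 and 0.00099, adjusted p = 0.000779 and 0.00699) and r of 0.602 and rho of 0.336 for Ano5 (permutation p = 9e-05 and 0.00512, adjusted p = 0.000793 and 0.0203). Without the 2 libraries farthest out, this r was 0.439 for Slc44a5 and 0.445 for Ano5. Mef2a and Itga4 were among the 3 most similar genes of both. The granule neuron markers had medians of −0.03 and −0.05 in Q140 against Q20, with 1 of 12 called lower at 10 months. Both genes ran against the ependymal score (r of −0.56 for Slc44a5 and −0.59 for Ano5), whose 9 markers had medians of −0.36 at 6 months and 0.06 at 10 months with none called. They were also called against the scores of oligodendrocyte precursors, Bergmann glia and astrocytes, microglia and blood. Without the 2 libraries farthest out, r with microglia was −0.326 for Slc44a5, against −0.555 with them, and −0.349 for Ano5, against −0.557. With blood it was −0.334 for Slc44a5, against −0.535, and −0.243 for Ano5, against −0.457, where rho of −0.226 did not pass (adjusted p = 0.139). By r Igsf10 was called with no marker list, and Necab1 with that of blood alone (r of −0.39). By rho Igsf10 also passed with unipolar brush cells (rho of −0.33, adjusted p = 0.0176) and endothelial cells (rho of 0.295, adjusted p = 0.0361), and Necab1 with ependymal cells (rho of −0.323, adjusted p = 0.0244). Their most similar genes were Klhl32 for Igsf10 (r of 0.663) and Prkacb for Necab1 (r of 0.806).

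**Figure D4:**
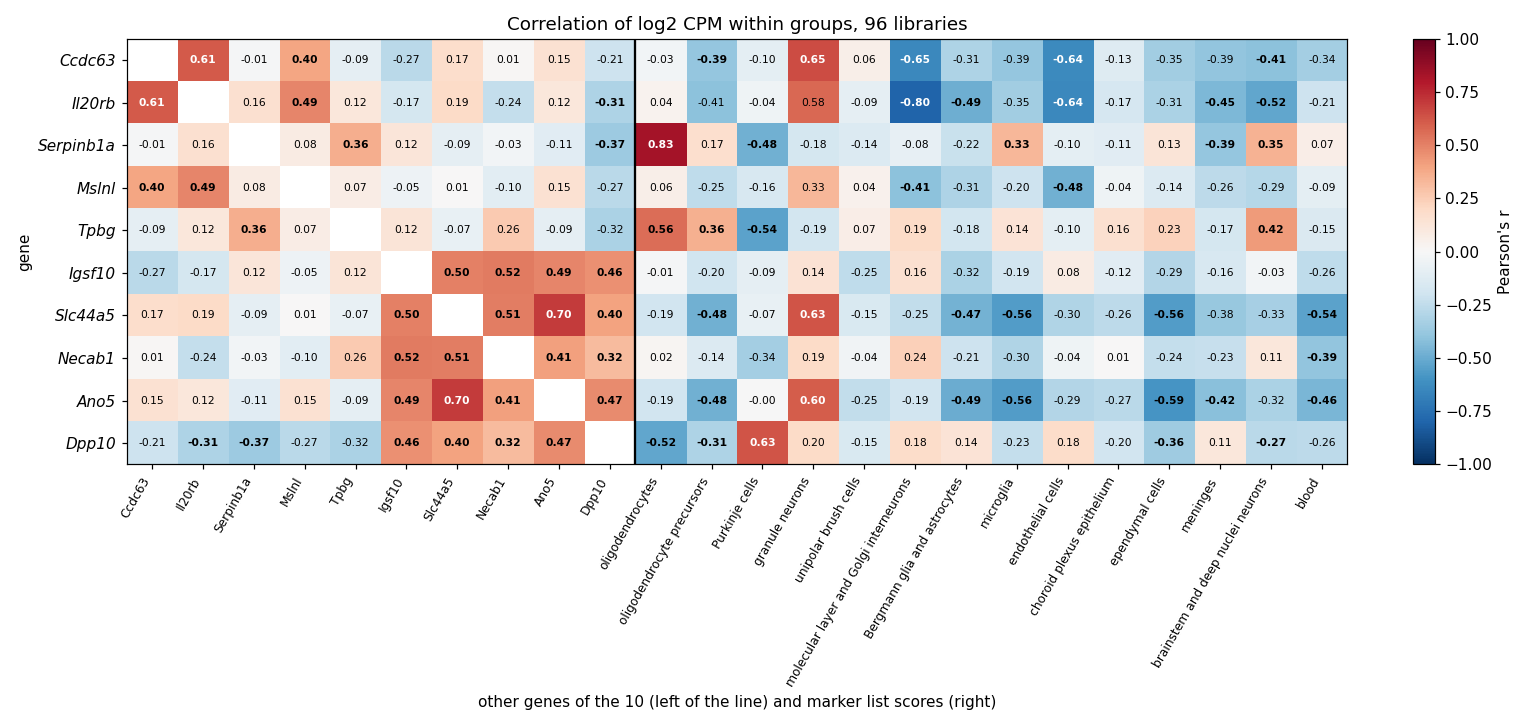
Pearson's r of log2 CPM within groups (colour and number, 96 libraries) between the 10 genes, left of the line, and between each gene and 14 marker list scores, right of it; bold numbers passed an adjusted permutation p of 0.05. Igsf10, Slc44a5, Necab1, Ano5 and Dpp10 form a block of positive values up to 0.70, and the largest value of all is 0.83 for Serpinb1a with oligodendrocytes.

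Genes of the same pathways and families, leaving out the 10 themselves, were tested in Q140 against Q20 over all genes in edgeR. Among 33 tested Wnt coreceptors and regulators, beside Tpbg, 1 was called, Sfrp5, a secreted Wnt inhibitor. Sfrp5 was lower at 6 months (1 of 33, where 0.0993% of all genes were), at a log2 fold change of −1.59 ± 0.30 (adjusted p = 0.00443, 0.303 CPM in Q140 and 0.9495 CPM in Q20). At 6 months 15 of 15 choroid plexus markers were also lower in sign, with a median of −2.42 and none called, at a summed level of 159 to 761 CPM in Q140 and 212 to 3112 CPM in Q20. At 10 months their median was 0.31, and no Wnt gene was called; Lgr6 had the smallest p (0.35 ± 0.11, adjusted p = 0.0702). The part of the choroid plexus in the Sfrp5 difference was not tested.

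At 10 months 1.06% of all genes were called higher and 0.934% lower, and each family named next had 1 gene called. Of the family of Ano5, 6 anoctamins were tested and Ano3 was called at 10 months, higher by 0.30 ± 0.07 (edgeR adjusted p = 0.0178, 72.7 CPM in Q140 and 59.01 CPM in Q20). At 6 months Ano3 was 0.30 ± 0.09 (edgeR adjusted p = 0.112). Of 15 neuronal EF-hand proteins beside Necab1, Vsnl1, a neuronal calcium sensor, was called lower at 10 months, at −0.21 ± 0.05 (edgeR adjusted p = 0.0149, 425 CPM in Q140 and 493 CPM in Q20). Of 9 genes named for the immunoglobulin superfamily, Igsf11, a synaptic adhesion protein, was called lower at 10 months, at −0.41 ± 0.05 (edgeR adjusted p = 5.03e-06, 14.9 CPM in Q140 and 19.8 CPM in Q20), against the sign of Igsf10.

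In the A-type potassium channel complex of Dpp10, none of 8 tested genes was called at either age. The pore subunit Kcnd3 had the smallest p, at 0.24 ± 0.09 at 6 months (edgeR adjusted p = 0.162) and 0.12 ± 0.05 at 10 months (edgeR adjusted p = 0.183). None was called among interleukin-10 family receptors and signalling genes beside Il20rb (12 tested at 6 months, 11 at 10 months), where Il10rb was −0.21 ± 0.08 at 6 months (edgeR adjusted p = 0.165) and Stat3 0.08 ± 0.04 at 10 months (edgeR adjusted p = 0.305). None was called among choline transporter-like and choline metabolism genes (12 and 13 tested), clade B serpins (6 tested), the mesothelin family (3 tested) or dynein arm and motile cilia genes beside Ccdc63 (21 tested). The cilia list had a median of −0.44 at 6 months and 0.10 at 10 months, against −0.01 and −0.00 over all genes, beside ependymal markers at −0.36 and 0.06, whose part was not tested. Its smallest p were those of Rsph9 at 6 months (−0.67 ± 0.20, edgeR adjusted p = 0.112) and Armc4 at 10 months (0.30 ± 0.14, edgeR adjusted p = 0.303).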

How the data were processed

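The authors deposited expected counts (estimates per gene, of which 81.6% were whole numbers at a tolerance of 0) and FPKM of the same 39179 genes in 96 libraries. CASAVA 1.8.2 is named in the submitters' processing notes. Not given in the sources used here are the aligner, the quantifier, the annotation, the build and the strand. RNA came from frozen tissue by a Qiagen kit, per the labels' protocols.

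Counts were rounded and tested with edgeR 4.0.16 in R 4.3.3 (quasi-likelihood F-test, two-sided, TMM, filterByExpr with a minimum count of 10 and total of 15), with terms for group and sex. The 48 libraries of an age gave the contrasts with Q140 and Q20 (41 residual degrees of freedom), and the 32 others the tests of the 10 genes (27). P-values were adjusted by Benjamini-Hochberg over all genes, with a threshold of 0.05. Each SE was taken as the size of the log2 fold change divided by the root of F. CPM are TMM-scaled, and log2 CPM have a prior count of 2. The scripts were tested on simulated data. No 2 libraries held identical counts.

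Alternatives were RLE factors, no filter, DESeq2 1.42.0, limma-trend (limma 3.58.1) on log2(FPKM + 0.1), the L number in the library names as a factor, all 48 libraries of an age in one fit, a replicate block, and libraries left out. The 10 genes and all lists were chosen with earlier results of these data known. Named besides the 10 were pathway genes called in Q140 minus Q20, at most 4 per list (where none, that of smallest p), genes among the 3 nearest to each of the 10 within groups (some are not reported here), and genes at the edge of the ranking.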

Additional observations from a re-analysis of the deposited data

Results flagged for a closer look

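In 12 of the 120 sets of 8 libraries (10 genes in 12 groups of an age), 1 library stood apart from the other 7 by Dixon's ratio in log2 CPM (past its 95% critical value), and chance gives about 5% of such sets. Q92 female replicate 2 at 10 months was the lowest of its group in 4 genes, with 3.35 CPM of Ccdc63 (group median 8.01), 27.1 CPM of Il20rb (86.9), 4.71 CPM of Slc44a5 (9.42) and 3.19 CPM of Ano5 (5.98), and is the far library of that age.

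Q50 female replicate 2 at 10 months was the highest of its group in Tpbg (20.1 CPM, median 11.6) and in Serpinb1a (20.1 CPM, median 13.8). A wild type housed with Q50, female replicate 4 at 10 months, had 22.7 CPM of Tpbg (median 12.2). For Serpinb1a at 10 months, Q140 female replicate 1 had 6.46 CPM (median 9.71), Q92 female replicate 4 had 7.62 CPM (median 11.04) and a wild type housed with Q20, female replicate 2, had 6.85 CPM (median 12.1). At 6 months Q140 female replicate 4 had 10.3 CPM of Slc44a5 (median 13.0) and a wild type housed with Q20, male replicate 4, had 149 CPM of Dpp10 (median 174), and both are far libraries of that age.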

How the results depend on the processing

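All 20 log2 fold changes of Q140 minus Q20 kept their sign under RLE factors, no low-count filter, DESeq2, limma-trend on FPKM and without the far libraries, at 0.574 to 1.03 times the values given. The count of the 10 genes called in female minus male at 10 months, 0, became 1 (Il20rb) with DESeq2, 1 without the far library and 1 with a replicate block. It lay between 0 and 2 with 1 library left out, and moved without Q50 female replicate 1, Q50 male replicate 2 or Q92 female replicates 1, 2 or 3. The 3 genes called between ages in wild types became 0 without the far libraries and 1 with the L number as a factor. With 1 library left out the count lay between 2 and 3, and Slc44a5 lost its call in 22 of these fits and without the low-count filter (adjusted p = 0.0674). The cause of these moves was not tested. Of the 45 pairs of the 10 genes, 14 were called in log2(FPKM + 0.1), against 16. The other counts of the 10 genes called stayed at 0 under the alternatives run, the replicate block included.

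Over all genes, Q140 minus Q20 at 6 months called 28 genes, 173 with DESeq2 and 6 without the far libraries, and at 10 months 339, and 756 without the far library. Q92 minus Q50 at 10 months called 0, and 22 with DESeq2. Q92 minus the 16 wild types called 6 and 9 genes at 6 and 10 months, between 2 and 14 under the alternatives, and Q50 minus its cage mates 2 and 9, between 2 and 9. Between the wild-type groups 1 and 14 were called, between 0 and 100. Female minus male called 45 at 6 months (20 to 77) and 493 at 10 months (24 with the L number, 1532 with DESeq2, 82 to 1837 with 1 library left out), and 10 minus 6 months 1051 (113 without the far libraries to 1974 with 1 left out). Same-numbered replicates had a median r of 0.02 over 240 pairs, with 98 over 0.1. Replicates of different number had a median of −0.01 over 720 pairs, with 245 over 0.1. A median near 0 does not exclude that the numbers pair some libraries. Depth limits Mslnl most, at 14 to 116 counts per library.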
